A study of Mus musculus with 136 samples.

Results

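Narrow bivalent SUZ12 sites were the WT SUZ12 peaks under 6000 bp wide that overlapped a peak of H3K4me3 and a region of H3K27me3 by at least 1 bp and touched no peak of H3K27ac. Of the 6298 SUZ12 peaks of the WT line, 2479 (39.4%) met this rule. The limit on width left 5838 peaks, the demand for H3K4me3 left 5518, H3K27me3 left 3332, and 853 of those were set aside because they touched H3K27ac. The membership therefore rested on the WT SUZ12 widths and on the WT lists of the 3 marks, and what these same lists show at the sites is given as a description with no test.

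The ChIP-seq data came from E14JU, a male 129/Ola mouse embryonic stem cell (ESC) line kept in serum with LIF. SUZ12 was measured in crosslinked, sonicated chromatin of MCM2-2A clones 439 and 442 and of WT clone 410, with 3 replicates per clone merged into 1 peak list each. MCM2-2A cells carry mutations in the part of the replicative helicase subunit MCM2 that binds parental histones. Each line was 1 clone, so the spread between clones of 1 genotype was seen for the mutant alone and from 2 clones. Histone marks of WT clone 410 came from native MNase ChIP in an original experiment (2 replicates per mark: H3K4me3, H3K27me3, H3K27ac and H3K9me3) and a rescue experiment (3 replicates: H3K4me3, H3K27me3 and H3K9me3). Because replicates had been pooled in every list, no test across samples could be made, and the 95% intervals given for shares (Wilson) and for differences of shares (Newcombe) cover counting error only. The number of reads behind a peak is unknown. As a check of the cell type, 26 of 26 naive pluripotency genes had H3K4me3 at their start and 25 had H3K27ac. H3K27me3 was at 5 and a WT SUZ12 peak at 4, and none of the 26 had a narrow bivalent site. Esrrb was the gene without H3K27ac, and it had H3K27me3 and SUZ12. The share of all genes with these marks was not measured, so these counts have no background.

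SUZ12 belongs to the core of PRC2, the Polycomb enzyme complex that places methyl groups on lysine 27 of histone H3. In ESCs PRC2 gathers at unmethylated CpG-rich promoters, many of which also carry H3K4me3, the mark placed at gene starts by COMPASS-family enzymes. The overlap of the activating and the repressive mark is called bivalency and is best known at developmental genes that are silent or weakly transcribed in ESCs. Acetylation of the same lysine 27 cannot coexist with its methylation on 1 histone tail and marks active promoters and enhancers.

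The promoters of the strongest sites and of 2 sites that were absent from both mutant lists are shown to set the top of the WT strength range beside sites that had no called peak in either mutant clone. The 5 strongest are those with the highest WT fold enrichment among sites with a protein-coding entry in the RefSeq promoter table (GRCm38.p6, the patch release of mm10), and Prkcz and Dpyd are the strongest with such an entry among the sites in neither mutant list. Each window runs 5′ to 3′ on the gene's own strand through 250 bases before and 50 bases after the gene start. Capitals mark CpG dinucleotides.
Neurod2 (chr11:98329596-98329895, minus strand): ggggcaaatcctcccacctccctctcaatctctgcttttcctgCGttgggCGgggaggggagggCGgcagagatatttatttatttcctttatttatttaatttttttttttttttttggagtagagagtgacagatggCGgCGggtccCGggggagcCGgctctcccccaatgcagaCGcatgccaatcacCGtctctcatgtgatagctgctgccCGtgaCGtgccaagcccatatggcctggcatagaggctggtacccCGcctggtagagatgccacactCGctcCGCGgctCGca
Bmp6 (chr13:38345466-38345765, plus strand): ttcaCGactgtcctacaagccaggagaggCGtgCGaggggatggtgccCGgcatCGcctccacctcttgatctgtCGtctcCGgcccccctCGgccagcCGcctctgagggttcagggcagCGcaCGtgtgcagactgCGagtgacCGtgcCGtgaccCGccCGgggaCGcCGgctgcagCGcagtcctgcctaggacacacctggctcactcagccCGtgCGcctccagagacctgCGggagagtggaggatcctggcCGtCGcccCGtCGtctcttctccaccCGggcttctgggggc
Tafa2 (chr10:123263826-123264125, plus strand): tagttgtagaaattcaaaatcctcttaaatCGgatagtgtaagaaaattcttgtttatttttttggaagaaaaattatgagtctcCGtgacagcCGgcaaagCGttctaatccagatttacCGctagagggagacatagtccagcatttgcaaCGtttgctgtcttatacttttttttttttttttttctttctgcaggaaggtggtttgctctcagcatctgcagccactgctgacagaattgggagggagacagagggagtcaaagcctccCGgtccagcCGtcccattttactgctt
Irf2 (chr8:46739495-46739794, plus strand): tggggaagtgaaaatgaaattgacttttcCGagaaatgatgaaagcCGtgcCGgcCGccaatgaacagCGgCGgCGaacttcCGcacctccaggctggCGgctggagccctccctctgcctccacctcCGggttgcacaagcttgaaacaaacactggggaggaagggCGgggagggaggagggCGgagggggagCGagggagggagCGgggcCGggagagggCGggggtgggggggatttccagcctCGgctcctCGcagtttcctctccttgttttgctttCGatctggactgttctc
Lhx6 (chr2:36105359-36105658, minus strand): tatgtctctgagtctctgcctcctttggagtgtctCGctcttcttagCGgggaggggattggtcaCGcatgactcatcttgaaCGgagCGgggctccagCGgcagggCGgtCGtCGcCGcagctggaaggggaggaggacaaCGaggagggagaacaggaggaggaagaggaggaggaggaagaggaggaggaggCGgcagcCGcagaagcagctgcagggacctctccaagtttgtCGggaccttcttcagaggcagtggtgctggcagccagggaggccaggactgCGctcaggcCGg
Prkcz (chr4:155345740-155346039, minus strand): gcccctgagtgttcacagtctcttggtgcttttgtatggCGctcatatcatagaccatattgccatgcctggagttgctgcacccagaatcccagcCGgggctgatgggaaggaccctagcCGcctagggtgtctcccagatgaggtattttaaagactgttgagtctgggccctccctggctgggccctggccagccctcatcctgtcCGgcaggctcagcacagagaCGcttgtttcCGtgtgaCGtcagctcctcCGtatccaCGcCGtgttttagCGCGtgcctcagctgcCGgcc
Dpyd (chr3:118561930-118562229, plus strand): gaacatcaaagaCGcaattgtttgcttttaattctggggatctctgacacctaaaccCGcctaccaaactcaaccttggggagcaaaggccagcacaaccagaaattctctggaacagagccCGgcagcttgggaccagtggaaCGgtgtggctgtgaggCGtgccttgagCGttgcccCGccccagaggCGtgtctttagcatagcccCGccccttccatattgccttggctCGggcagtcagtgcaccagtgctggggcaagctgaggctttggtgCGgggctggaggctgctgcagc
The Bmp6 window held 27 CpG dinucleotides and was 69.3% G or C, the most of the 7. The Tafa2 window held 8 and was 41.7% G or C, the least, although its SUZ12 peak was among the strongest. Irf2 had 19, Neurod2 and Lhx6 16 each, Prkcz 13 and Dpyd 11. The CpG count of these windows thus did not follow the order of SUZ12 strength.

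Neurod2, which encodes a neuronal bHLH transcription factor, lay at the strongest site (chr11:98325314-98330354), with a SUZ12 fold enrichment over background of 82.2 in clone 439 and 67.5 in clone 442, against 144 in WT. Fold enrichment is set against each list's own background, so positions within a list are the safer comparison. The Neurod2 peak was number 182 of 7571 in clone 439 and number 149 of 7840 in clone 442, against number 4 of 6298 in WT. Another WT SUZ12 peak lay 126 bp away, and the mutant peak was 6338 bp wide in clone 439 and 8168 bp in clone 442, against 5041 bp in WT. Kcnk9, a background potassium channel gene with a site at chr15:72543988-72549887, had 107 in clone 439 and 43.7 in clone 442, against 116 in WT. The clones stood apart there, with position 25 in clone 439 and position 707 in clone 442, against position 26 in WT. Bmp6, a ligand of the bone morphogenetic protein family (chr13:38343322-38348223), had 83.5 in clone 439 and 84.5 in clone 442, against 116 in WT. Its position was 166 in clone 439 and 29 in clone 442, against 27 in WT.

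The next strongest sites lay at Tafa2, a secreted chemokine-like protein of neurons, at Irf2, an interferon regulatory factor, and at Lhx6, a homeodomain factor of cortical interneurons. Tafa2 had 92.7 in clone 439 and 69.0 in clone 442, against 105 in WT. Irf2 had 85.5 in clone 439 and 79.3 in clone 442, against 101 in WT. Lhx6 had 78.1 in clone 439 and 64.3 in clone 442, against 99.7 in WT. All of these peaks stayed within the first 227 positions of both mutant lists. Adra2a (an adrenergic receptor), Nkx2-4 (a homeodomain factor), Trp73 (a p53 family member) and Gsg1l (an AMPA receptor auxiliary protein) completed the 10 strongest. Nkx2-4 showed the same split between clones as Kcnk9, with 106 in clone 439 and 46.5 in clone 442, against 99.1 in WT. Trp73 had 101 in clone 439 and 87.8 in clone 442, against 98.7 in WT. These 10 sites were picked by their WT value, so no direction is read from the lower mutant values.

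**Figure D1:**
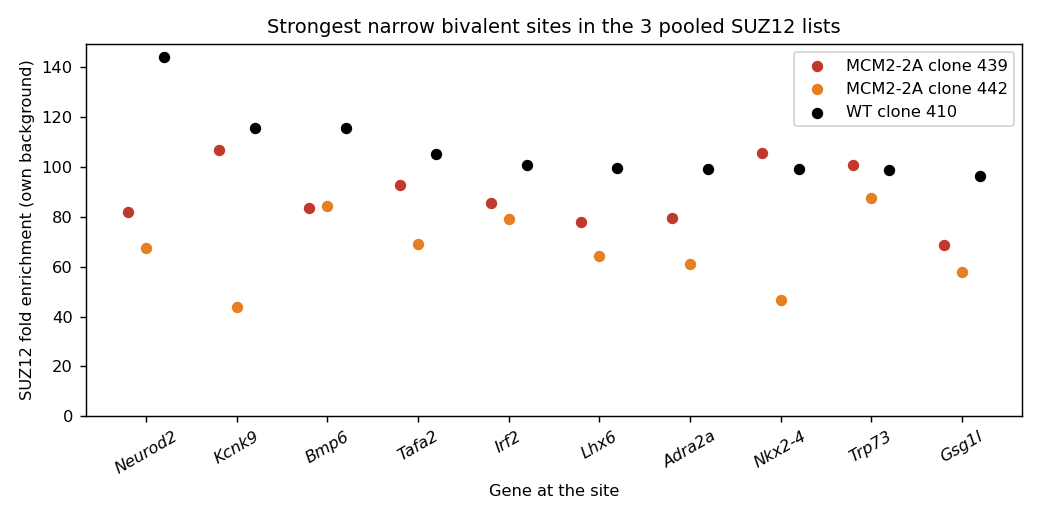
SUZ12 fold enrichment (vertical axis, relative to each list's own background) of the 10 strongest narrow bivalent sites in MCM2-2A clone 439, MCM2-2A clone 442 and WT clone 410, 1 point per pooled list and gene. Neurod2 has the highest WT value (144), and Kcnk9 and Nkx2-4 separate the 2 mutant clones, with clone 442 at 43.7 and 46.5.

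Across all 2479 sites, WT fold enrichment ran between 1.82 and 144 with a median of 14.3 (middle 50% of sites 8.06 to 27.1). The sites were therefore of middling strength in the WT list, with a median rank fraction of 0.52, where 0 is the weakest peak and 1 the strongest. Peak width ran between 203 and 5978 bp with a median of 2173 bp (middle 50% 1460 to 3144 bp). WT peaks of 6000 bp or wider were stronger, with a median fold of 69.6. At the limit of width, Hapln4 (5964 bp, WT fold 24.0) and Dlx4 (5978 bp, WT fold 31.4) were the last sites inside. Rbpjl (6027 bp, WT fold 41.2) and Pcdha11 (6042 bp, WT fold 31.5) carried the same marks and fell just outside.

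The 2 marks differed in shape at the sites. H3K27me3 covered the whole SUZ12 peak at 95.4% of sites (2364 of 2479) and H3K4me3 at 14.5% (359 of 2479), with H3K4me3 covering a median of 70.9% of the peak. The H3K27me3 region holding a site had a median width of 17251 bp and ran up to 357131 bp. The SUZ12 summit lay inside an H3K4me3 peak at 99.1% of sites. At 5 kb on the left and right of the peak middle, H3K27me3 still covered 66.6% and 63.8% of sites, while H3K4me3 covered 6.90% and 7.99% and WT SUZ12 covered 3.83% and 4.20%. H3K27ac, barred from the peak itself by the rule, lay a median of 13300 bp away, and 7.83% of sites (194 of 2479) had an H3K27ac peak within 1000 bp.

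**Figure D2:**
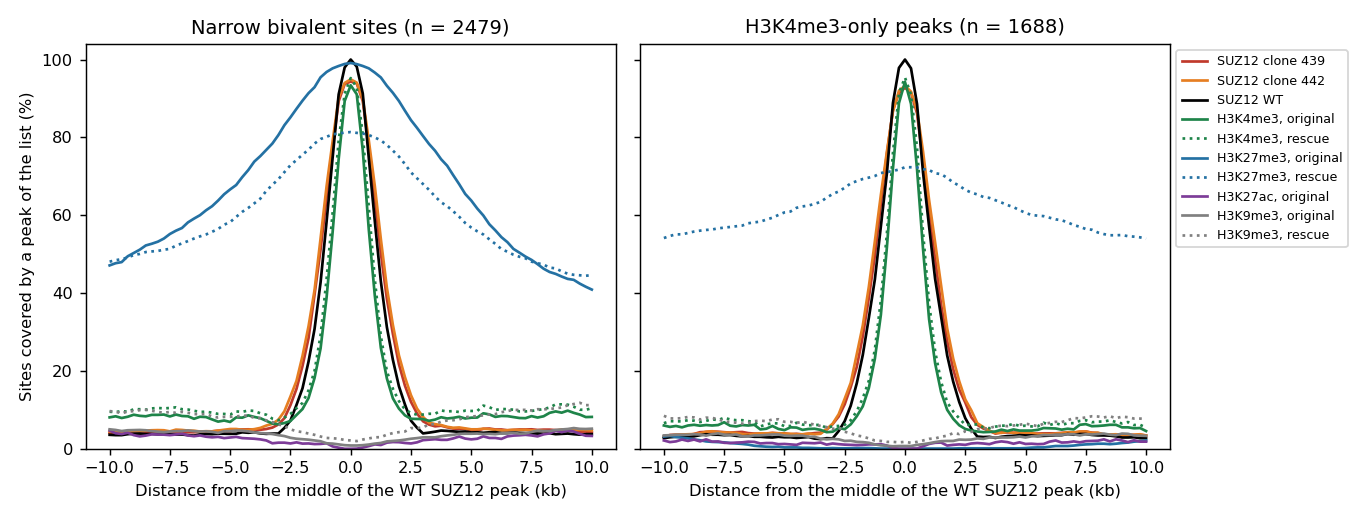
Share of sites covered by a peak of each list (vertical axis, %) against distance from the middle of the WT SUZ12 peak (horizontal axis, kb). Shown are the 2479 narrow bivalent sites and the 1688 WT SUZ12 peaks under 6000 bp with H3K4me3 but neither H3K27me3 nor H3K27ac in the original lists. Solid lines are the mutant and WT SUZ12 lists and the original mark lists, dotted lines the rescue lists. H3K27me3 forms a broad tent over the narrow bivalent sites, and its rescue list reaches 81.4% at their middle.

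The sites were mostly 1 to an H3K27me3 region. They lay in 2174 separate regions, of which 1938 held 1 site, 195 held 2 and 41 held 3 or more. The region with the most sites, 9, was the Hoxc region on chromosome 15 (chr15:102793760-103150890). Hox genes are the positional regulators of the body axis. At Hoxc13 SUZ12 fold was 25.1 in clone 439 and 14.4 in clone 442, against 22.3 in WT. At the stronger of the pair of Hoxc4 sites it was 44.6 in clone 439 and 29.3 in clone 442, against 42.6 in WT. The peak there was 5787 bp wide in clone 439 and 8030 bp in clone 442, against 3880 bp in WT, with another WT peak 133 bp away. All 9 of these sites had a peak in both mutant lists, against 92.2% of all narrow bivalent sites. By chromosome, sites made up 24.1% of the WT SUZ12 peaks on chromosome 14 and 48.7% of those on chromosome 18, the lowest and the highest shares.

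The rescue experiment gave a second set of mark lists from the same WT clone that the rule had not used. H3K4me3 was again present at 2478 of 2479 sites, against 95.6% of all WT SUZ12 peaks. The rule had demanded it in the original list, while some of all WT peaks lacked it there. Of the WT peaks under 6000 bp with H3K4me3 alone in the original lists, 99.8% had it again. All 853 narrow peaks with both methyl marks and H3K27ac had it too. H3K27me3 was present at 2033 of 2479, or 82.0% (95% Wilson interval 80.4 to 83.5%), against 78.5% of all WT SUZ12 peaks. Both marks together were present at 2032 sites (82.0%), against 75.2% of all. Among the 1688 WT peaks under 6000 bp with H3K4me3 alone in the original lists, 72.7% (70.6 to 74.8%) carried H3K27me3 in the rescue list. The share was therefore 9.26 percentage points higher at narrow bivalent sites (Newcombe interval 6.67 to 11.9), and 9.28 points higher when the peaks were weighted over 10 bins of WT SUZ12 strength. The sites had been picked for H3K27me3 in the original list of the same clone, and these 1688 peaks for lacking it there. A higher share at the sites was built into that choice, and no result is read from it. Against the 853 narrow peaks that carried both methyl marks and H3K27ac, of which 87.0% had H3K27me3 in the rescue list, the difference was -4.98 points (-7.59 to -2.15), and -3.81 points when weighted. The rescue H3K27me3 list was far larger, covering 930 Mb in 63473 regions against 363 Mb in 41869 regions of the original list, and the part this played was not tested. With H3K4me3 and H3K27me3 taken from the rescue lists, and the SUZ12 and original H3K27ac lists unchanged, the same rule found 3297 sites. The 2032 sites shared by both definitions were 82.0% of the original set and 61.6% of the rescue set.

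The 446 sites without H3K27me3 in the rescue list were not the weak ones. Their median WT SUZ12 fold was 19.0 and their original H3K27me3 regions had a median width of 23431 bp, against 13.6 and 15831 bp at the 2033 sites where H3K27me3 was found again. Irf2, among the 5 strongest sites, was one of them. The share found in both mutant SUZ12 lists was 92.8% of the 446 and 92.0% of the 2033, a difference of 0.79 percentage points with an interval that spanned 0 (-2.19 to 3.20).

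H3K9me3, the mark of heterochromatin and silenced repeats, was rare at the sites in both experiments. It overlapped 53 sites (2.14%, 1.64 to 2.79%) in the original list, against 1.89% of all WT SUZ12 peaks, and 147 sites (5.93%, 5.07 to 6.93%) in the rescue list, against 6.13% of all. Neither share could be told apart from that of the other WT peaks under 6000 bp, with differences of 0.59 percentage points (-0.10 to 1.33) in the original list and 0.54 points (-0.65 to 1.77) in the rescue list.

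The mutant SUZ12 lists, which the rule did not use, showed how many of these sites kept a called peak in cells with mutated MCM2. A peak was present at 2346 sites (94.6%) in clone 439, against 92.5% of all WT SUZ12 peaks, and at 2363 sites (95.3%) in clone 442, against 93.4%. Both lists held 2285 of the 2479 sites, or 92.2% (91.1 to 93.2%), against 89.3% of all WT SUZ12 peaks. Clone 439 alone of the mutants held 61 (2.46%, against 3.26% of all), clone 442 alone held 78 (3.15%, against 4.11%), and 55 sites (2.22%, against 3.38% of all) were in neither. The other WT peaks under 6000 bp were found in both lists in 85.8% of cases, 6.37 percentage points less (4.77 to 7.95). Against the H3K4me3-only peaks the difference was 2.42 points (0.66 to 4.25). Against narrow peaks that carried H3K27ac beside both methyl marks it was 2.02 points, with an interval that spanned 0 (-0.12 to 4.42). WT peaks of 6000 bp or wider were found in both lists in 98.7% of cases, a difference of -6.52 points (-7.85 to -4.71).

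Presence in the mutants followed the strength of the WT peak. With the WT list cut into 10 bins of near equal size by fold, in the weakest bin 81 of 152 narrow bivalent sites were in both mutant lists (53.3%), against 47.1% of the other narrow peaks. In the next bin the shares were 64.8% (58.3 to 70.7%) of narrow bivalent sites and 64.7% (59.9 to 69.2%) of the others. Between WT folds of 8.14 and 10.3 they were 96.9% and 96.5%, and from a fold of 17.9 upward every narrow bivalent site was found, 1017 of 1017. The other narrow peaks of that range, bins 7 to 10, were found at 99.3%, 99.7%, 100% and 100%, so the sites hardly differed from them. With the comparison weighted over the 10 strength bins, the difference of 6.37 points was 1.01 points. The weighted difference was 1.82 points against the H3K4me3-only peaks and turned to -1.17 points against the narrow peaks with H3K27ac.

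**Figure D3:**
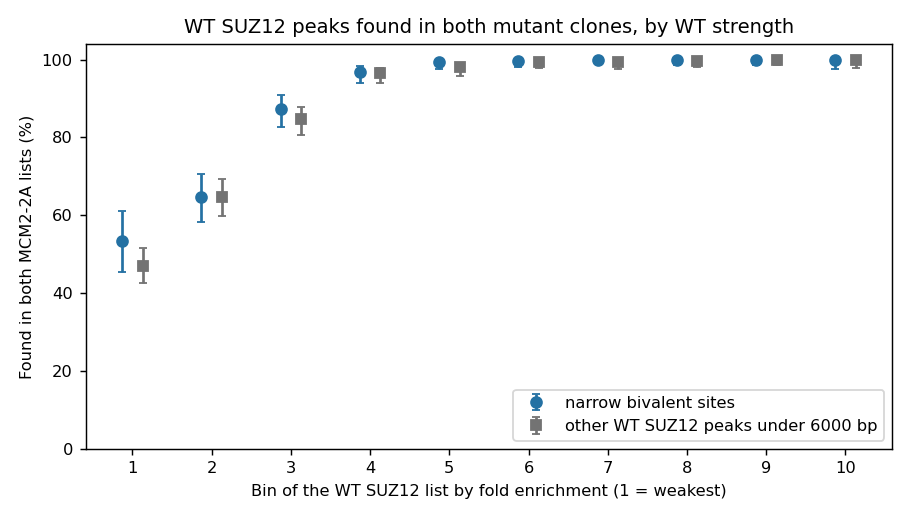
Share of WT SUZ12 peaks found in both MCM2-2A lists (vertical axis, %) by strength bin of the WT list (horizontal axis, 10 bins of near equal size, 1 the weakest), for narrow bivalent sites and for the other WT SUZ12 peaks under 6000 bp, with 95% Wilson intervals. The 2 sets run together, with 53.3% and 47.1% in bin 1 and 100% of both in bins 9 and 10.

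The 55 sites absent from both mutant lists were weak. The strongest of them, at chr17:5940725-5941156, had a WT fold of 7.47 and was number 4632 of the WT list, and it lay 174 bp from another WT SUZ12 peak. Prkcz, an atypical protein kinase C gene whose promoter is shown above, had a WT fold of 6.70. Dpyd, which encodes the first enzyme of pyrimidine breakdown, had 5.89. Among sites missing from 1 mutant list the strongest was Pde4a, a cAMP phosphodiesterase gene, with 17.7 in clone 439 and no peak in clone 442, against 17.6 in WT. Another WT peak lay 79 bp from the Pde4a site. Ccdc158 had 10.7 in clone 439 and no peak in clone 442, against 10.4 in WT. Dpy19l2, known for its role in forming the acrosome of sperm, had no peak in clone 439 and 9.58 in clone 442, against 10.2 in WT. Tbx22, a T-box factor of palate development on the X chromosome, had no peak in clone 439 and 6.86 in clone 442, against 9.01 in WT.

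The strength of the remaining sites was compared by rank fraction. The median shift was +0.06 in clone 439 and +0.07 in clone 442, both relative to WT. The mutant lists are longer. Added peaks raise the rank fraction of a peak where the share of them below it is greater than its own rank fraction. The medians over all WT SUZ12 peaks were +0.06 and +0.07. Ranked only among the 5621 WT peaks found in both mutant lists, the sites had a median shift of -0.01 in each clone, with 1027 higher and 1258 lower in clone 439 and 1060 higher and 1225 lower in clone 442. Over all WT peaks found in both mutant lists the medians were also -0.01 in each clone. The rank fraction was higher in both clones at 1465 sites (59.1%, against 56.5% of all WT peaks) and lower in both at 213 (8.59%, against 9.64%). The direction of the overall shift thus turned with the set in which the peaks were ranked. A rise of 0.2 or more in both clones was seen at 160 sites (6.45%, 5.55 to 7.49%), against 7.56% of all WT peaks, and a loss of that size at 1 site, against 0.0953% of all, at chr14:103095197-103095553. Fold there was 6.96 in clone 439 and 6.17 in clone 442, against 12.7 in WT.

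The 10 sites with the largest mean rank gain had 1 feature in common. Every one was a weak WT peak, with a fold between 2.12 and 6.05 and a width between 205 and 1318 bp, and every one lay between 69 and 408 bp from a stronger WT SUZ12 peak that a single peak spanned together with it in both mutant clones. The site at Tbc1d9, a Rab GTPase-activating protein gene, had 25.7 in clone 439 and 48.0 in clone 442, against 2.85 in WT. Its WT neighbour 128 bp away had a fold of 29.1 and overlapped H3K27ac. The site at Snx7, a sorting nexin, had 15.9 in clone 439 and 17.3 in clone 442, against 2.65 in WT, and its WT neighbour had 15.6. The site at Col8a2, a short-chain collagen gene, had 26.5 in clone 439 and 26.1 in clone 442, against 6.05 in WT, and its WT neighbour had 24.7. At Mmp17, a membrane-type metalloproteinase, the values were 31.6 in clone 439 and 15.7 in clone 442, against 2.30 in WT, and the neighbour had 32.3. Set against the rank of that neighbour, the mutant peaks at the 10 sites differed by between -0.16 and +0.38 in rank fraction. In all, 320 sites (12.9%) lay within 500 bp of another WT peak, against 17.3% of all WT SUZ12 peaks, and these made up 46 of the 160 sites with a rise of 0.2 or more.

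Losses in rank were smaller among the sites with a peak in both mutant lists. A site missing from a mutant list has no rank there, so it is not counted among the losses. Taking the strongest overlapping mutant peak also favours gains. Among the sites named by a gene, Pip5k1b (a phosphatidylinositol phosphate kinase) had 5.51 in clone 439 and 7.38 in clone 442, against 12.01 in WT. Bmyc (a Myc relative) had 5.51 in clone 439 and 8.01 in clone 442, against 12.05 in WT. Fam174b had 15.6 in clone 439 and 11.6 in clone 442, against 28.1 in WT. The largest mean loss over both clones was 0.25 in rank fraction, against a largest mean gain of 0.80.

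The sites were somewhat wider in the mutants, but the rule limited their width in WT and not in the mutants. The widest overlapping mutant peak had a median log2 width ratio of 0.12 in clone 439 and 0.19 in clone 442, both relative to WT, and 0.10 and 0.17 where 1 WT peak matched 1 mutant peak. The other WT peaks under 6000 bp matched 1 to 1 had 0.11 in clone 439 and 0.16 in clone 442. WT peaks of 6000 bp or wider, picked for being wide in WT, had 0.0042 in clone 439 and 0.0097 in clone 442. The part of the width limit in these ratios was not tested. A peak of 6000 bp or wider lay over 53 sites in clone 439 (2.14%), over 91 in clone 442 (3.67%) and over 29 in both (1.17%, 0.816 to 1.68%), against 8.81%, 9.94% and 7.64% of all WT peaks. That share of all peaks includes the peaks that were already that wide in WT. Widening of 1.5-fold or more in both clones was seen at 192 sites (7.75%, 6.76 to 8.86%), against 8.02% of all WT peaks, and narrowing of that size at 7 sites, against 0.492% of all. Of the 192, 77 (40.1%) lay within 500 bp of another WT peak. Without all such neighbours the share was 5.33% of 2159 narrow bivalent sites and 5.22% of 2738 other narrow peaks. A mutant peak joined a site to another WT peak at 163 sites in clone 439 (6.58%, against 7.42% of all), at 193 in clone 442 (7.79%, against 8.54%) and at 129 in both (5.20%, 4.40 to 6.15%, against 5.73%). A site was split into several mutant peaks at 32 sites in clone 439 (1.29%, against 2.11% of all) and at 46 in clone 442 (1.86%, against 2.41%).

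A protein-coding gene was assigned to 1690 sites (68.2%, 66.3 to 70.0%), against 68.1% of all WT SUZ12 peaks, where a RefSeq gene start lay within 1000 bp of the peak or, for genes with no entry in the promoter table, either end of the gene lay within 2500 bp. With lncRNA genes added the count was 1769 (71.4%, against 71.3% of all). The 1718 protein-coding genes so reached were 7.85% of the 21887 tested. Where the strand was known, the SUZ12 summit sat a median of 261 bp into the gene, downstream of the start at 83.5% of 1246 sites, and within 500 bp of it at 70.4%. The H3K4me3-only peaks had the same median of 261 bp, 83.7% downstream and 73.2% within 500 bp, over 861 sites. Over all WT SUZ12 peaks with a known strand, 3162, the median was 303 bp, with 82.2% downstream and 64.1% within 500 bp.

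Of 101 cadherin and protocadherin genes, 54 (53.5%, 43.8 to 62.9%) had a narrow bivalent site, against 7.85% of all protein-coding genes. Most of them belonged to the clustered protocadherins, neuronal surface proteins whose many isoforms start from neighbouring promoters on chromosome 18, where 40 sites served 45 genes and 36 of the 40 were in both mutant lists, against 92.2% of all narrow bivalent sites. Neighbouring genes there share sites, so they are not separate observations. SUZ12 fold had a median of 15.4 in clone 439 and 15.7 in clone 442, against 12.5 in WT (range 3.84 to 46.1). The WT median covers all 40 sites and each mutant median only those with a peak in that clone, so the sets are unlike. Taken the same way over all narrow bivalent sites, the medians were 18.2 in clone 439 and 16.6 in clone 442, against 14.3 in WT. Elsewhere, Cdh22 had 90.2 in clone 439 and 51.8 in clone 442, against 88.6 in WT. Cdh4, encoding R-cadherin, had 61.3 in clone 439 and 56.5 in clone 442, against 61.3 in WT. Genes named from this and the following lists are among the 4 of highest WT fold in their list. No direction is therefore read from lower mutant values at them.

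Potassium channel genes had a site at 30 of 92 (32.6%), against 7.85% of all protein-coding genes. Of those with any WT SUZ12 peak, 46.9% had such a site, against 40.7% of all SUZ12-bound protein-coding genes. The peak was in both mutant lists at all 30, against 95.3% of all protein-coding genes with a site. Presence followed WT strength, and the median WT fold was 27.9 at these sites, against 14.3 at all narrow bivalent sites. The part of strength in this contrast was not tested. Kcnk13 had 76.3 in clone 439 and 55.1 in clone 442, against 94.8 in WT, and Kcnk12 had 69.3 in clone 439 and 46.3 in clone 442, against 93.1 in WT. Over all 30 potassium channel sites the median fold was 30.8 in clone 439 and 25.5 in clone 442, against 27.9 in WT. Clone 439 had a higher fold than WT at 15 of the 30. Neurotransmitter receptor genes had a site at 28 of 103 (27.2%), and at 41.2% of those with a WT SUZ12 peak. Gabbr2, a GABA-B receptor subunit, had 67.6 in clone 439 and 68.4 in clone 442, against 79.6 in WT. Grm8, a glutamate receptor, had 57.2 in clone 439 and 57.5 in clone 442, against 75.7 in WT. Sodium and calcium channel genes had a site at 9 of 40, and at 47.4% of those with a WT SUZ12 peak. Among them Cacna1e had 48.0 in clone 439 and 35.4 in clone 442, against 27.6 in WT.

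Among signalling genes, Fgf ligands and receptors had a site at 11 of 34 (32.4%), Wnt genes at 17 of 55 (30.9%) and the Bmp, TGF-beta and Nodal list at 15 of 60. The share of all protein-coding genes was 7.85%. Of the genes with a WT SUZ12 peak in these lists, the shares were 55.0%, 37.0% and 37.5%, against 40.7% of all SUZ12-bound protein-coding genes. Fgf16 had 56.6 in clone 439 and 51.1 in clone 442, against 68.3 in WT. The ligand Wnt5b had 68.3 in clone 439 and 69.3 in clone 442, against 78.1 in WT, while Sfrp1, a secreted Wnt antagonist, had 50.1 in clone 439 and 47.7 in clone 442, against 56.7 in WT. Bmper, a secreted regulator of Bmp ligands, had 44.8 in clone 439 and 36.5 in clone 442, against 59.3 in WT. The Hedgehog list had 1 site among 17 genes, at Hhip, an inhibitor that binds Hedgehog ligands, with 9.65 in clone 439 and 18.2 in clone 442, against 14.5 in WT. The Notch list had 2 of 16, Lfng and Dlk2. Lfng, a glycosyltransferase that modifies Notch, had 53.7 in clone 439 and 42.4 in clone 442, against 33.8 in WT. Another WT peak lay 77 bp from the Lfng site, and its mutant peak was 3158 bp wide in clone 439 and 9217 bp in clone 442, against 2871 bp in WT.

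Transcription factors were split by family. bHLH factors had a site at 15 of 52 (28.8%), and the peak was in both mutant lists at all 15, against 95.3% of all protein-coding genes with a site. Their sites had a median WT fold of 22.7, against 14.3 at all narrow bivalent sites, and the part of strength was not tested. Among the bHLH factors, Twist1, a mesenchymal factor, had 74.4 in clone 439 and 54.3 in clone 442, against 70.3 in WT. Homeobox regulators had a site at 9 of 77 (11.7%) and Hox cluster genes at 3 of 39 (7.69%), although 76 and 38 of them had some WT SUZ12 peak. Thus 11.8% of the SUZ12-bound homeobox genes and 7.89% of the SUZ12-bound Hox genes were reached through a narrow bivalent site, against 40.7% of all SUZ12-bound protein-coding genes and 68.4% of the SUZ12-bound cadherin genes. The T-box, Gata, Sox, Fox, Pax and Zic families lay between, at 16.9%, and the bHLH factors stood at 36.6%. The remaining SUZ12-bound homeobox and Hox genes had SUZ12 peaks of 6000 bp or wider or with another set of marks in the original lists. A mark missing from a list may still be present on the chromatin. Even at WT SUZ12 peaks of 6000 bp or wider, the summit lay inside H3K27me3 at 56.7% in the original list and 73.5% in the rescue list.

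**Figure D4:**
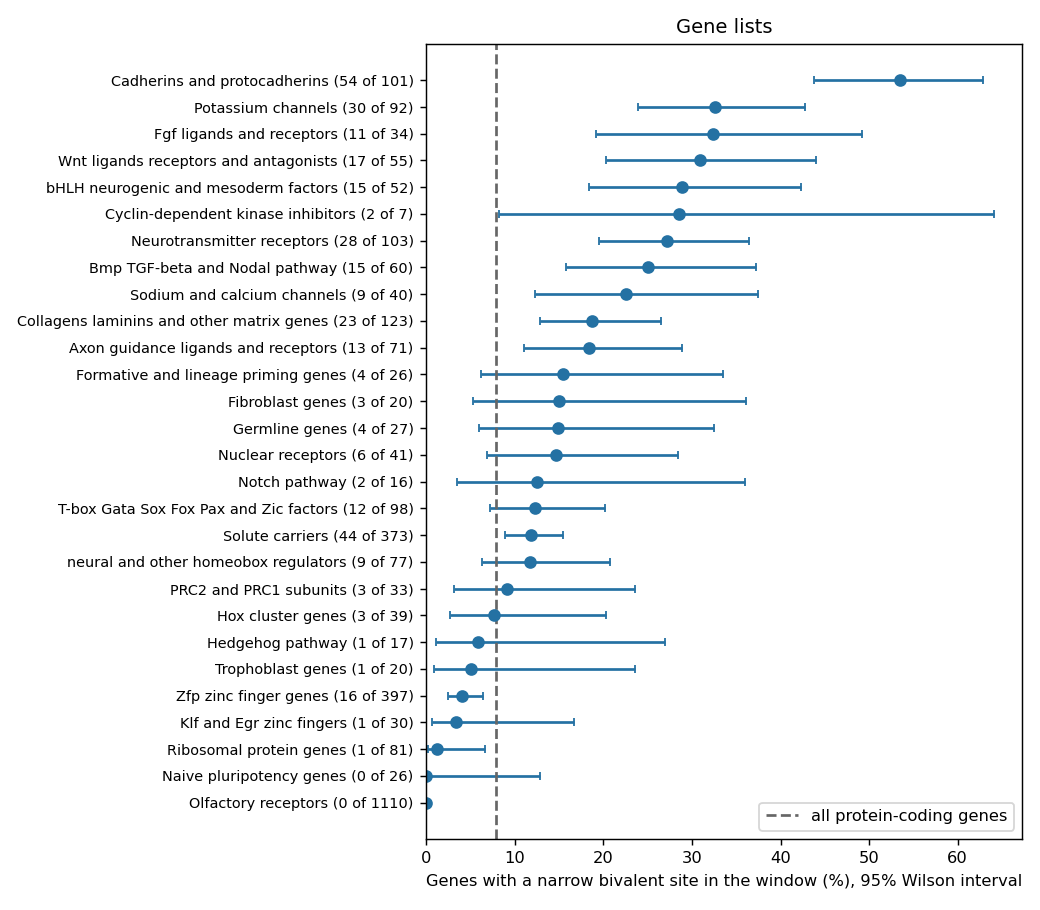
Share of the genes of each list with a narrow bivalent site in the window (horizontal axis, %, with 95% Wilson intervals) beside the share of all protein-coding genes (dashed line, 7.85%). Counts are given beside each list name. Cadherins and protocadherins reach 53.5%, and the naive pluripotency and olfactory receptor lists are at 0.

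The remaining lists were described by counts, to be read beside the 7.85% of all protein-coding genes with a site. Axon guidance genes had a site at 13 of 71, matrix genes at 23 of 123, solute carriers at 44 of 373, nuclear receptors at 6 of 41, germline genes at 4 of 27, fibroblast genes at 3 of 20 and Zfp zinc finger genes at 16 of 397. Formative and lineage priming genes had 4 of 26, trophoblast genes 1 of 20, Klf and Egr genes 1 of 30, and ribosomal protein genes 1 of 81. Of 7 cyclin-dependent kinase inhibitor genes 2 had a site, Cdkn1c and Cdkn2a. Cdkn1c, an imprinted growth inhibitor, had 64.4 in clone 439 and 59.5 in clone 442, against 32.0 in WT. Its mutant peak was 9891 bp wide in clone 439 and 10019 bp in clone 442, against 3902 bp in WT, and another WT peak lay 286 bp away. Cdkn2a had 27.6 in clone 439 and 51.7 in clone 442, against 31.1 in WT. Its mutant peak was 3068 bp wide in clone 439 and 11489 bp in clone 442, against 3126 bp in WT, with another WT peak 72 bp away. The part of such neighbours in these fold values was not tested. The Polycomb list had 3 of 33, at Pcgf5, Yaf2 and Phf19. Phf19, an accessory subunit of PRC2 itself, had 33.1 in clone 439 and 26.7 in clone 442, against 19.4 in WT. Olfactory receptor genes had 0 of 1110.

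The promoters of the sites were rich in CpG. In the 300-bp windows of 1423 protein-coding starts at the sites, the median CpG count was 22 (middle 50% 13 to 32), against 10 in 17621 windows with no WT SUZ12 peak. The median share of G and C was 65.3%, against 54.7%. The observed-to-expected CpG ratio was 0.6 or more in 67.4% of the windows, against 43.3% of those with no SUZ12 peak. H3K4me3-only peaks had a median of 21 CpG and the other WT peaks under 6000 bp as a whole had 22, both within 1 CpG of the sites. In the 82 windows at sites missing from a mutant list the median was 18, against 22 in the 1347 windows at sites found in both. A window at sites of both kinds is counted in both groups. Every site with a WT fold of 17.9 or more was in both lists, so the groups also differ in WT strength. The part of strength in the CpG counts was not tested.

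Motifs were searched as plain letters on both strands, and no motif string contains another. The pair CGCG was in 74.8% of the windows at the sites, against 49.2% of all promoters, and the GC box GGGCGG, the core bound by SP and KLF factors, in 69.6%, against 46.2%. CCAAT was in 29.7%, against 38.2% of all promoters, TATAAA in 7.66%, against 12.6%, and the ETS core CCGGAAG in 5.41%, against 11.6%. The E-box CACGTG was in 8.08%, against 7.84% of all promoters. The NRF1 core GCGCATGC was in 2.74%, against 3.52%, and the YY1 core AAGATGGC in 1.05%, against 3.05%. In the windows of the other WT peaks under 6000 bp, CGCG was in 76.7% and the GC box in 70.3%. CCAAT was in 30.6% of them, TATAAA in 6.75%, the ETS core in 5.75% and the E-box in 8.55%. The NRF1 core was in 2.06% and the YY1 core in 0.739%, so these shares too lay near those of the sites. Of the windows printed, Neurod2, Bmp6, Irf2, Lhx6 and Dpyd held a GC box, and Tafa2 held CCAAT alone of the motifs searched.

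**Figure D5:**
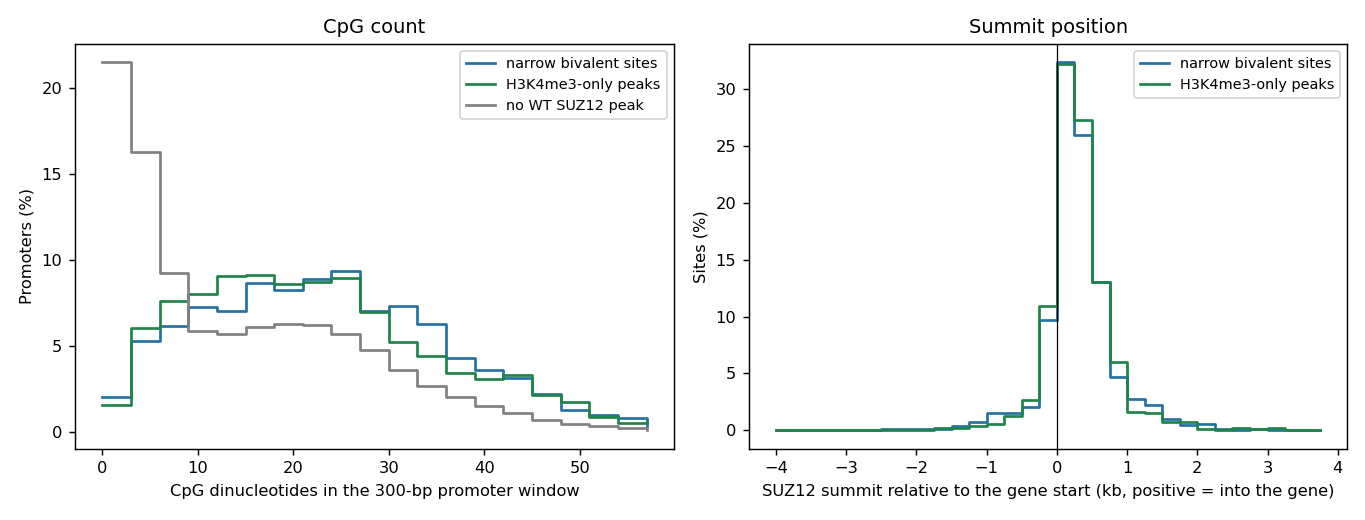
Left, distribution of the CpG count in the 300-bp promoter window (horizontal axis, CpG dinucleotides, vertical axis, % of promoters) for narrow bivalent sites, H3K4me3-only peaks and promoters with no WT SUZ12 peak. Right, position of the SUZ12 summit relative to the gene start (kb, positive into the gene) in % of sites. The curves of the 2 SUZ12 classes lie together, with a median of 22 and 21 CpG and a summit 261 bp into the gene in both.

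Few sites held a microRNA gene. Of the 1005 hairpins in the RefSeq table, 13 lay in 12 of the sites (0.484%), against 0.683% of all WT SUZ12 peaks, and all 12 had a peak in both mutant lists, against 92.2% of all narrow bivalent sites. The mature forms of the 4 that belong to well-known families are shown with the seed, bases 2 to 8, in capitals. They were chosen after their values were seen.
mmu-miR-193a-3p: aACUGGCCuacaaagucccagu
mmu-miR-193b-3p: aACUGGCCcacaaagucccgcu
mmu-miR-219a-5p: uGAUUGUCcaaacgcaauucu
mmu-miR-152-3p: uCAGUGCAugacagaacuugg
The first pair shares the seed ACUGGCC although the genes lie on different chromosomes. SUZ12 fold at the Mir193a site (chr11:79709704-79713495) was 50.5 in clone 439 and 35.9 in clone 442, against 48.9 in WT. At the Mir193b site (chr16:13445664-13450478) it was 20.7 in clone 439 and 19.2 in clone 442, against 18.3 in WT. The Mir219a-2 and Mir219b site, where both strands give a microRNA and miR-219a is known from oligodendrocyte maturation, had 12.9 in clone 439 and 12.7 in clone 442, against 10.8 in WT. The Mir152 site was weak, with 7.48 in clone 439 and 6.71 in clone 442, against 5.05 in WT.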

How the data were processed

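Peak lists were taken as deposited, on the mm10 genome, and MACS2 2.1.0, Picard 2.20.7, BWA 0.7.15 and cutadapt 2.5 are listed by the submitters' processing notes, with no role stated. The authors combined replicates into 1 list per clone and mark and the deposited SUZ12 lists are named in the labels as idr peaks. The deposited lists of SUZ12, H3K4me3 and H3K27ac give each peak a score, a ratio to background (fold enrichment) and −log10 p and q values, the p column of which was left unused. Of these the fold was the main measure of strength, and the −log10 q and the score served in alternatives. For the H3K27me3 and H3K9me3 regions the authors deposited unnamed score columns, which were not used. No source used here ties a tool to the calling of these regions.

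Positions were set to count from 1. Peaks overlapped at 1 bp or more, and a site's mutant strength was that of the overlapping mutant peak of highest fold, its width that of the widest. Rank fractions ran between 0 and 1 within each list. Differences weighted over 10 strength bins took the number of narrow bivalent sites per bin as weights. The overlap and interval code was tested on simulated data.

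Sites, gene lists and motifs were chosen with earlier results of these data known. Sites were named by fixed rules. These were the 10 strongest in WT and the 10 largest mean rank gains and losses. Also named were the 5 strongest missing from both or from 1 mutant list and the 5 largest width ratios. Up to 4 per gene list were named by highest WT fold, and 2 on either side of the width limit. Gene symbols, promoters and microRNAs came from RefSeq tables of GRCm38.p6. Promoter entries matched 17492 of the 21887 protein-coding genes tested. Python 3.11.15 with numpy 2.4.6, pandas 2.3.3, scipy 1.17.1 and statsmodels 0.14.6 was used. Mark lists of the mutant clones and the other samples of the 136 in the series were not analysed here. 1 site named by these rules is not reported here.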

Additional observations from a re-analysis of the deposited data

How the results depend on the processing

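No paired analysis was possible because the replicates are pooled in each list and no column carries a replicate number. The number of sites stayed between 2159 and 3297 under all 9 alternative definitions. The share found in both MCM2-2A lists (92.2%) was 87.9% with mutant lists cut to the WT length, 94.6% with clone 439 alone and 95.3% with clone 442 alone, and between 91.1% and 92.4% under the other alternatives. Its excess over other narrow peaks (6.37 percentage points) fell to 1.01 when weighted over strength bins, to 2.90 against narrow peaks that carry H3K4me3, and to 3.39 without sites within 500 bp of another WT peak. The median rank shift turned to -0.0079 in clone 439 and -0.0091 in clone 442 among peaks found in both mutant lists, and was 0.0668 in clone 442 by −log10 q. The median log2 width ratio was 0.104 in clone 439 and 0.166 in clone 442 with 1-to-1 partners, and 0.167 in clone 442 without sites within 500 bp of another WT peak. The last setting, the single-clone shares and the comparison with H3K4me3-carrying peaks were chosen after seeing the data. The causes were not tested. Pooled lists without read counts limit every comparison to presence, rank and width of called peaks, so a site missing from a list may still be bound below the caller's threshold.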
